A study of Bos taurus with 6 samples.

Results

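The genes that build cholesterol and fatty acids and that move sterols through the cell were followed in bovine granulosa cells treated with PD98059. The module holds 36 genes, taken as a list of names that applies no cutoff on their values, although it was drawn up with earlier results of these data known: 7 of the mevalonate pathway, 11 of the steps between farnesyl diphosphate and cholesterol, 5 of the SREBP system, 7 of sterol traffic and ester turnover, and 6 of fatty acid and glycerolipid synthesis. All 36 were found, each read by 1 cluster of its own among the 24415 transcript clusters of the array. A transcript cluster is a group of probes that read one gene. The clusters of ABCA1 and LIPE are each listed for a second, uncharacterized locus as well, and a further cluster is listed for RUSC1 and FDPS together and was not used for FDPS.

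Primary bovine granulosa cells were cultured for 4 days without serum, with FSH, IGF1 and androstenedione. On day 2, PD98059, which inhibits the kinase MEK and so keeps ERK from being phosphorylated, was given at 50 μM for 2 h to 3 cultures, and its vehicle DMSO to 3 others. The methods then name fresh medium without inhibitor, whereas the labels name an exchange of part of the medium, so whether inhibitor remained is not settled. The cells had been aspirated from small and medium follicles and frozen before culture. No source used here says whether the 6 cultures go back to separate pools of cells, and the p-values cover only the variation among these cultures, which may be technical. In such bulk RNA, fewer cells of a type and less RNA per cell cannot be told apart. Total RNA of each culture was hybridized to a GeneChip Bovine Gene 1.0 ST array, and the deposited values are log2 expression values after the Robust Multichip Average (RMA) procedure. All differences are PD98059 minus DMSO on this log2 scale.

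Cholesterol is built from acetyl-CoA through mevalonate, farnesyl diphosphate, squalene and lanosterol, and in granulosa cells it is also the substrate from which pregnenolone and progesterone are made. Its synthesis is governed by SREBP transcription factors, which lie in the endoplasmic reticulum bound to the escort protein SCAP. When sterols are low, SCAP carries them to the Golgi, where proteases release the active factor. When sterols are high, the INSIG proteins hold the complex back. Surplus sterol is esterified by SOAT1 or exported by ABCA1 and ABCG1, whose genes are targets of the oxysterol-sensing LXR receptors.

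The treatment and the cell type were checked first. CYP19A1, which encodes aromatase, had 9.54, 9.59 and 9.62 with PD98059, against 7.33, 7.68 and 7.72 with DMSO, and the ERK phosphatase gene DUSP6 had 4.75, 4.95 and 4.74 against 6.12, 6.20 and 5.94. All 10 granulosa markers lay above the background level, a log2 value of 3.71 given by the 95th percentile of 363 olfactory receptor clusters. All 10 markers of fibroblasts and smooth muscle did so too, as did 4 of 6 immune, 3 of 5 theca, 1 of 4 adipocyte and 1 of 5 endothelial markers. The summed linear signal of the fibroblast and smooth muscle markers was 6989 to 7305 with PD98059 and 7743 to 7839 with DMSO, and that of the granulosa markers 11725 to 11959 with PD98059 and 6946 to 7306 with DMSO. By the threshold given below, 7 of the 10 granulosa markers were higher with PD98059, among them CYP19A1, the gene used above to check the treatment. Their sum therefore cannot separate the number of granulosa cells from expression per cell. Among the fibroblast and smooth muscle markers, PDGFRB (−0.81), CNN1 (−0.66) and PDGFRA (−0.59) fell, while MYH11 had a log2 fold change of 0.62 that did not pass. LUM and POSTN, which had the highest mean values of that list, had −0.17 and −0.03 and did not pass. VWF, the only endothelial marker above background, fell too (−0.57, limma, adjusted p = 0.0284). The theca marker PTCH1 had 0.39 and met only the false discovery rate part of the threshold (adjusted p = 0.0258). No other marker of theca or endothelium met that part, nor did any immune or adipocyte marker. The part of these differences in the results below was not tested. On the whole array, PD98059 raised 222 clusters, or 0.909% of all, and lowered 434, or 1.78%, at a false discovery rate (FDR) under 0.05 and a fold above 1.4 (limma, Benjamini-Hochberg over all clusters).

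Of the 36 genes, 1 rose with PD98059 (SCAP), none fell and 35 did not pass this threshold. Against a background of 0.909% of clusters called higher, 1 gene of 36 is little to read, and SCAP lay just past the fold limit. At the FDR limit alone SOAT1 joined it, among 1.72% of all clusters that were higher and 2.82% that were lower by this limit. No unadjusted p under 0.05 was reached by any of the 7 mevalonate pathway genes, and over the 36 genes it was reached by 3 on the higher side and 7 on the lower side, against 9.47% and 10.2% of all clusters. The measurements were close enough to bound most of the others. For 33 of the 36 genes, or 91.7%, the whole 95% interval of the change lay inside the fold limit of 1.4. The exceptions were SCAP, SOAT1 and ABCA1. The share inside was 70.5% of all clusters and 74.6% of those above background, where 35 of the 36 genes lay. The median standard error was 0.07 for the 36 genes, 0.10 for all clusters and 0.09 for those above background. Brighter clusters varied less within groups, with a median SD of 0.14 between log2 values of 4 and 6 and 0.06 between 8 and 10.

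**Figure D1:**
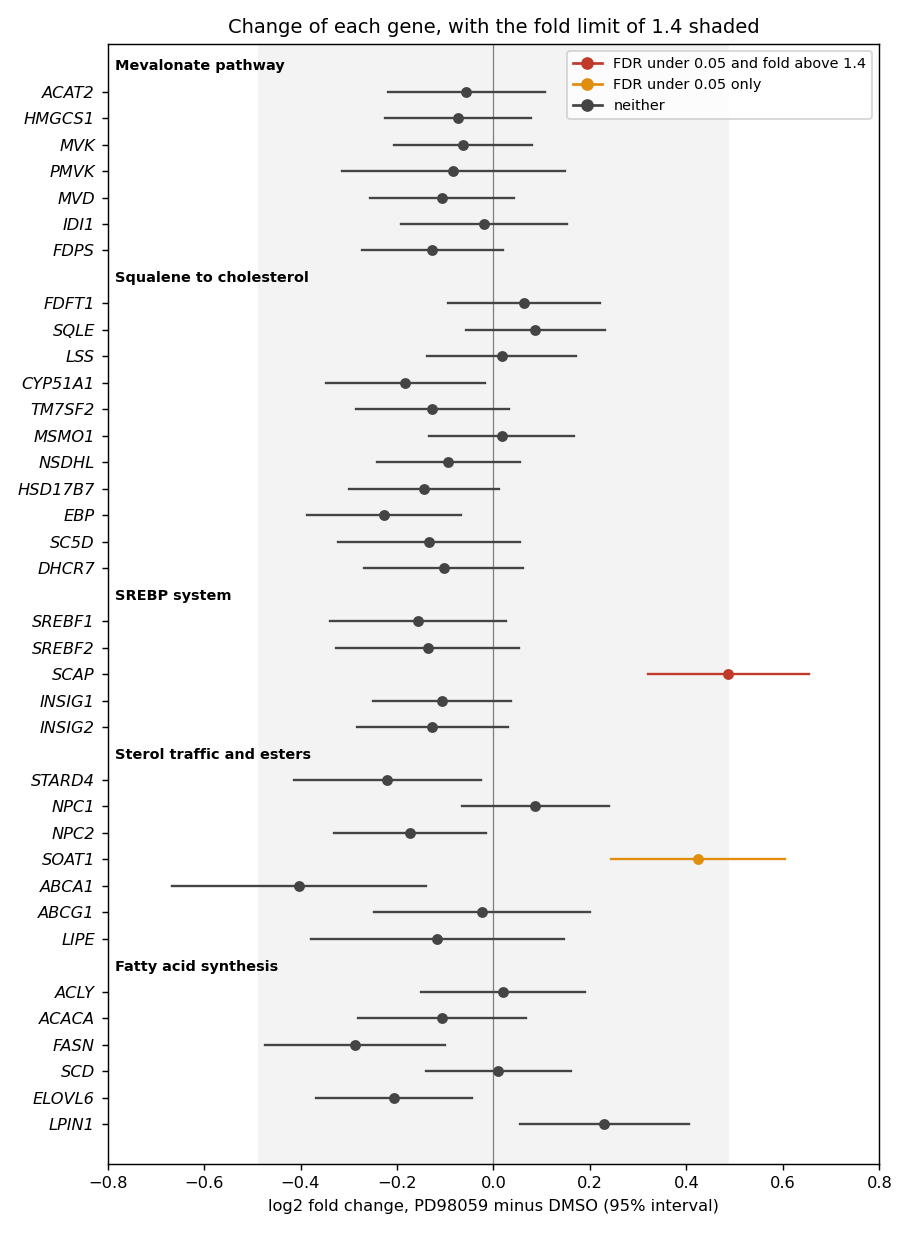
The log2 fold change (PD98059 minus DMSO, limma) of each of the 36 genes on the horizontal axis, with its 95% interval, ordered by role along the vertical axis, and with changes of less than 1.4-fold shaded. The intervals of 33 genes lie inside the shaded range, and those of SCAP, SOAT1 and ABCA1 reach beyond it.

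Although nearly all changes were small, they leaned to the lower side. The log2 fold change was below 0 in 26 of the 36 genes, or 72.2%, against 46.4% of all clusters, and its median was −0.10 (−0.105), against 0.01 over all clusters. The values of the 3 PD98059 cultures lay wholly below those of the 3 DMSO cultures in 18 genes, against 13% of all clusters, and wholly above them in 5 genes, against 12.6% of all clusters. This background was larger among brighter clusters, whose SD within groups was smaller. Between log2 values of 6 and 8, 23.1% of 5526 clusters were lower without overlap, as were 6 of the 10 genes of the module at that level. Between 8 and 10 it was 26.6% of 2455 clusters and 7 of 15 genes, and above 10 it was 24.0% of 454 clusters and 3 of 7 genes. The share below 0 was 54.6% of the clusters between 6 and 8, where 9 of 10 genes were below 0, and 51.9% between 8 and 10, where 10 of 15 were. Above 10, the brightest genes showed no lean: 3 of 7 were below 0, against 52.2% of clusters, and their median was 0.01, against −0.01 for the clusters. The 3 genes between 4 and 6 were all below 0, against 45.2% of clusters, and ABCG1 was the only gene under 4. These genes share the 6 arrays and are not independent of each other, so no test was made of the counts.

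**Figure D2:**
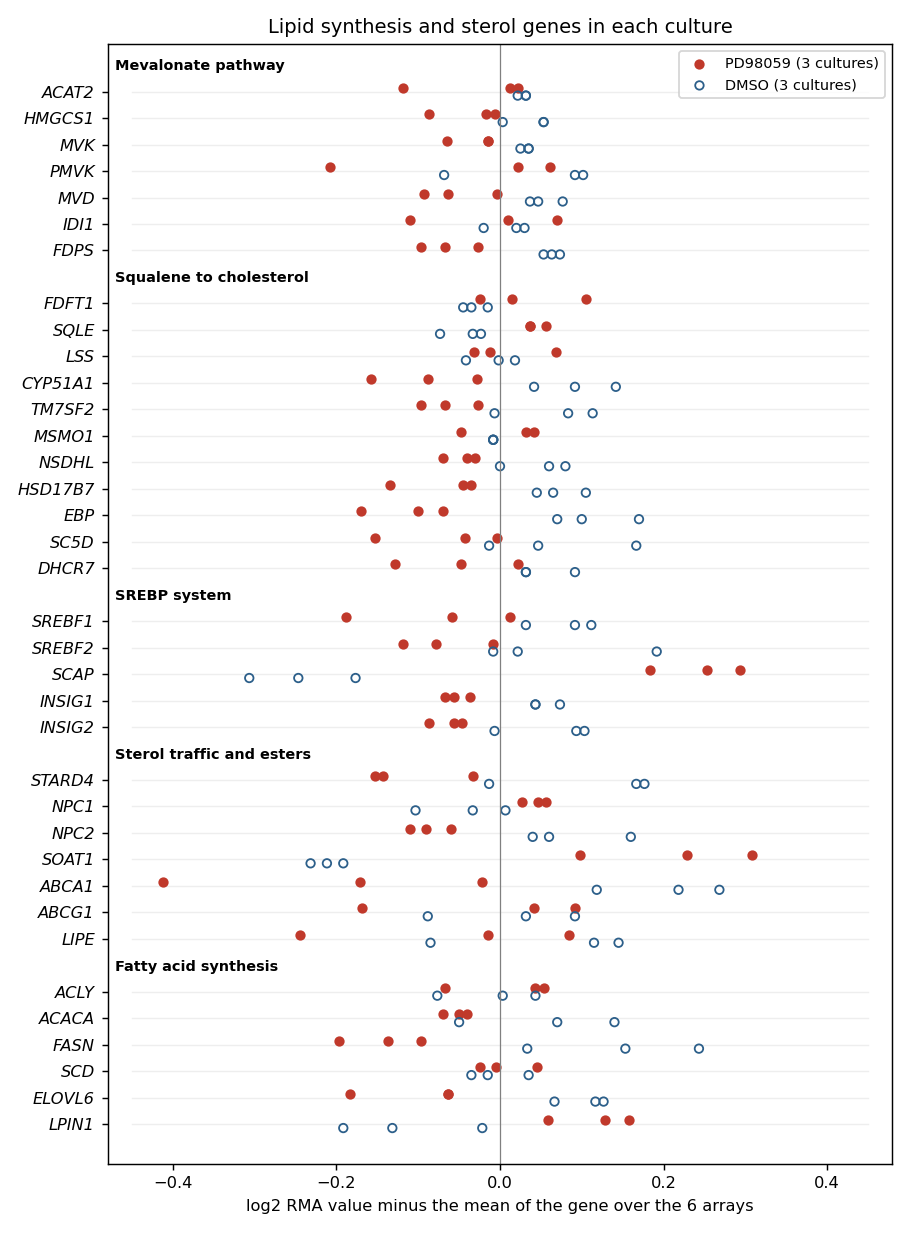
Each point is 1 culture: its log2 RMA value minus the mean of that gene over the 6 arrays (horizontal axis), for 36 genes ordered by role (vertical axis), with PD98059 as filled and DMSO as open circles. The PD98059 points lie wholly to the left of the DMSO points in 18 genes and wholly to the right in 5, among them SCAP and SOAT1, whose groups stand widest apart on that side.

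The mevalonate pathway runs from the condensation of acetyl-CoA units to farnesyl diphosphate, and its 7 genes hardly moved. None passed the threshold, and the log2 fold changes ran between −0.13 (FDPS) and −0.02 (IDI1), with a median of −0.07. All 7 were below 0, and the groups did not overlap in 4 of them (HMGCS1, MVK, MVD and FDPS). With the IDI1 value at 0.00 after a repeated quantile normalization, the common sign does not hold under every scaling. FDPS, which encodes the synthase of farnesyl diphosphate, had values of 9.97, 10.00 and 10.04 with PD98059, against 10.13, 10.14 and 10.12 with DMSO. Every treated culture lay below every control, and the difference of −0.13 had a 95% interval of −0.27 to 0.02 (limma, adjusted p = 0.319). MVD, the decarboxylase that makes isopentenyl diphosphate, had 7.23, 7.26 and 7.32 with PD98059, against 7.36, 7.37 and 7.40 with DMSO. Here too the groups were apart by less than the interval could resolve (−0.11, interval −0.26 to 0.04, adjusted p = 0.416). HMGCS1, the cytosolic HMG-CoA synthase and a classic SREBP target, had 11.09, 11.02 and 11.10 with PD98059, against 11.16, 11.11 and 11.16 with DMSO. Its change of −0.07 had an interval of −0.22 to 0.08 (adjusted p = 0.588). The thiolase gene ACAT2, the kinase genes MVK and PMVK and the isomerase gene IDI1 had adjusted p-values of 0.627 to 0.916.

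From squalene to cholesterol, 11 genes were measured, and none passed the threshold. The log2 fold changes ran from −0.23 (EBP) to 0.09 (SQLE), with a median of −0.10. The 4 positive ones were FDFT1 and SQLE, which make and oxidize squalene, LSS, which closes the ring to lanosterol, and MSMO1, a methylsterol oxidase that acts later. The other 7 genes, which all act after lanosterol, were below 0, and in 6 of these the groups did not overlap. LSS and MSMO1, both at 0.02, took the opposite sign when the arrays were centred on their medians.

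EBP, the sterol isomerase, had the largest change of the sterol enzymes. Its values were 7.89, 7.92 and 7.82 with PD98059, against 8.06, 8.16 and 8.09 with DMSO. All treated cultures lay below all controls, by 0.23 on average (interval of the log2 fold change −0.39 to −0.07, adjusted p = 0.126), a difference that met the FDR limit only with a trend of the variance on the mean level (adjusted p = 0.0213). CYP51A1, the lanosterol demethylase, had 9.20, 9.07 and 9.14 with PD98059, against 9.32, 9.27 and 9.37 with DMSO. Its change was −0.18 (interval −0.35 to −0.02, adjusted p = 0.213, or 0.0360 with the variance trend), again with no overlap of the groups. SQLE, the squalene epoxidase and a step at which the pathway's flux is controlled, had 10.14, 10.14 and 10.16 with PD98059, against 10.08, 10.03 and 10.07 with DMSO. Treated cultures were higher in every case, but by only 0.09 (interval −0.06 to 0.23, adjusted p = 0.491). For DHCR7, which catalyses the last reduction of the branch that passes through 7-dehydrocholesterol, the values were 10.63, 10.55 and 10.70 with PD98059 and 10.71, 10.71 and 10.77 with DMSO. The change of −0.10 (adjusted p = 0.475) was of the size of the other late enzymes. Taking the mevalonate and later steps as 1 chain, all 18 intervals lay inside the fold limit, and 14 of the 18 changes were below 0.

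In the SREBP system, SCAP rose and the 4 other genes did not pass the threshold. SCAP, the escort of the SREBP precursors, had 8.69, 8.80 and 8.76 with PD98059, against 8.20, 8.26 and 8.33 with DMSO. The treated cultures lay clearly above the controls, with no overlap. The log2 fold change was 0.49 (standard error 0.07, interval 0.32 to 0.65, adjusted p = 0.0155), a fold of 1.401 beside the limit of 1.4. Only 3.94% of all clusters moved further in either direction. The call was lost in 4 of 6 fits without 1 array, those without PD98059 replicate 2 or 3 or DMSO replicate 1 or 2, with adjusted p-values of 0.0420 to 0.0712 over the 6 fits, and it was lost when the arrays were centred on their medians (log2 fold change 0.45, adjusted p = 0.0173), where only the fold limit was missed. With the replicate number as a block only the FDR limit was missed (adjusted p = 0.0671).

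The factors that SCAP carries and the proteins that hold it back were all slightly lower. SREBF1, which encodes the SREBP that favours fatty acid synthesis, had 5.97, 6.10 and 6.17 with PD98059, against 6.19, 6.27 and 6.25 with DMSO. SREBF2, which encodes the SREBP that favours cholesterol synthesis, had 7.91, 7.80 and 7.84 with PD98059, against 7.94, 7.91 and 8.11 with DMSO. The groups were separate for SREBF1 (log2 fold change −0.16, adjusted p = 0.324) and met at 7.91 for SREBF2 (−0.14, adjusted p = 0.410). INSIG1, itself an SREBP target, was the least variable gene of the module within groups, with an SD of 0.02. It had 8.96, 8.99 and 8.97 with PD98059, against 9.07, 9.07 and 9.10 with DMSO, a change of −0.11 (interval −0.25 to 0.04, adjusted p = 0.392). INSIG2 had 7.37, 7.33 and 7.36 with PD98059, against 7.41, 7.52 and 7.51 with DMSO (log2 fold change −0.13, adjusted p = 0.353). Neither INSIG gene overlapped between the groups, and neither change passed the FDR limit in limma. INSIG1 passed it in the plain test per cluster without moderation, an alternative chosen here (adjusted p = 0.0473).

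Sterol traffic and ester turnover held the widest range of changes, from −0.40 (ABCA1) to 0.42 (SOAT1), and the median of its 7 genes was −0.12. No gene passed the threshold. SOAT1, the enzyme that esterifies cholesterol for storage in lipid droplets, had 9.14, 9.27 and 9.35 with PD98059, against 8.81, 8.83 and 8.85 with DMSO. Every treated culture was well above the controls, which lay within 0.04 of each other, and the log2 fold change was 0.42 (standard error 0.08, interval 0.24 to 0.60, adjusted p = 0.0305). It thus passed the FDR limit at a fold of 1.34, inside the fold limit, and it passed the FDR limit in 1 of 6 fits without 1 array, with adjusted p-values of 0.0430 to 0.116. The FDR limit was also missed with the replicate block (adjusted p = 0.0905) and in the plain test per cluster without moderation (adjusted p = 0.0633). LIPE, the hormone-sensitive lipase that releases cholesterol from its esters, had 4.68, 5.01 and 4.91 with PD98059, against 5.07, 5.04 and 4.84 with DMSO, values that overlapped (−0.12, adjusted p = 0.624).

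ABCA1, the exporter that loads cholesterol onto apolipoproteins, had 5.54, 5.93 and 5.78 with PD98059, against 6.17, 6.07 and 6.22 with DMSO. All treated cultures were lower, with PD98059 replicate 1 below the other two. The log2 fold change of −0.40 had a standard error of 0.11 and an interval of −0.67 to −0.14, and the FDR limit was not met (adjusted p = 0.104), although it was met when dim clusters were left out before the fit (adjusted p = 0.0481) and with a trend of the variance on the mean level (adjusted p = 0.0362). ABCG1, an exporter that passes cholesterol to high-density lipoproteins, was near background, at a mean of 3.43, and is not informative here. NPC1 and NPC2, which together release cholesterol from lysosomes, had opposite signs. NPC1 had 8.52, 8.49 and 8.51 with PD98059, against 8.47, 8.36 and 8.43 with DMSO (0.09, adjusted p = 0.519). NPC2 had 8.65, 8.67 and 8.70 with PD98059, against 8.80, 8.92 and 8.82 with DMSO (−0.17, adjusted p = 0.218, or 0.0433 with the variance trend). The groups were separate in each, and neither passed the threshold. STARD4, a carrier of sterol between membranes, had 5.85, 5.73 and 5.74 with PD98059, against 5.87, 6.05 and 6.06 with DMSO (−0.22, interval −0.41 to −0.03, adjusted p = 0.204), with PD98059 replicate 1 and DMSO replicate 1 almost touching.

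**Figure D3:**
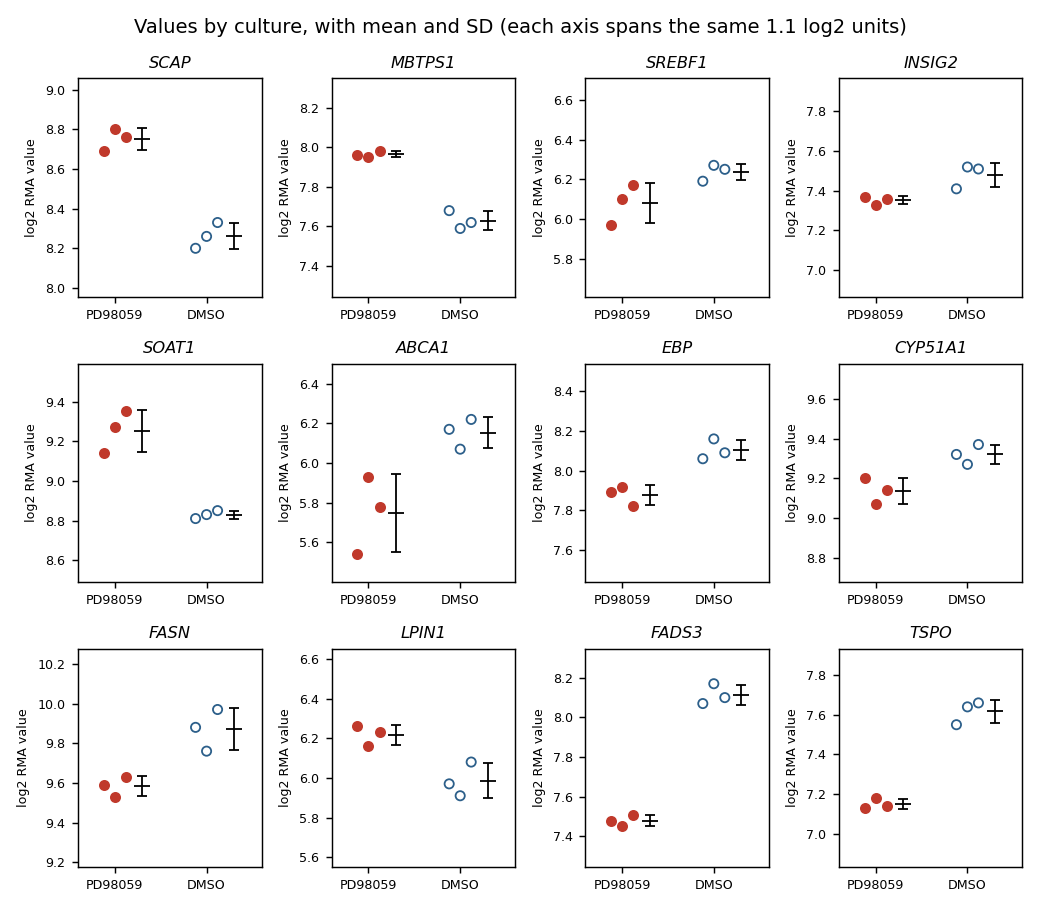
The log2 RMA values of 12 genes, with 1 point per culture (PD98059 filled, on the left of each panel, DMSO open, on the right) and the mean ± SD of each group (n = 3), on vertical axes of equal span. SCAP, MBTPS1, SOAT1 and LPIN1 lie higher with PD98059, and the other 8 lie lower, with no overlap of the groups in any panel.

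Among the 6 genes of fatty acid and glycerolipid synthesis, 3 changes were positive and 3 negative, none passed the threshold, and the median was −0.05. FASN, the fatty acid synthase, had 9.59, 9.53 and 9.63 with PD98059, against 9.88, 9.76 and 9.97 with DMSO. The treated cultures were lower without overlap, by 0.29 on average (interval of the log2 fold change −0.47 to −0.10, adjusted p = 0.103). The FDR limit was met when dim clusters were left out (adjusted p = 0.0425) and with the variance trend (adjusted p = 0.00795), and the fold of 1.22 was inside the limit in each setting. ELOVL6, which elongates palmitate, had 9.29, 9.17 and 9.29 with PD98059, against 9.47, 9.42 and 9.48 with DMSO (−0.21, interval −0.37 to −0.04, adjusted p = 0.161, or 0.0172 with the variance trend), again without overlap.

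LPIN1, a phosphatidate phosphatase of glycerolipid synthesis, moved the other way. It had 6.26, 6.16 and 6.23 with PD98059, against 5.97, 5.91 and 6.08 with DMSO, a change of 0.23 (interval 0.05 to 0.41, adjusted p = 0.152) with separate groups. SCD and ACLY had changes close to 0, and that of ACACA was a little below it. SCD, the desaturase, had 12.17, 12.15 and 12.22 with PD98059, against 12.16, 12.14 and 12.21 with DMSO, and its change of 0.01 had an interval of −0.14 to 0.16. ACLY, which makes cytosolic acetyl-CoA from citrate, had 9.88, 9.77 and 9.89 with PD98059, against 9.84, 9.76 and 9.88 with DMSO (0.02, interval −0.15 to 0.19). ACACA, the acetyl-CoA carboxylase, had 7.08, 7.09 and 7.06 with PD98059, against 7.20, 7.08 and 7.27 with DMSO (−0.11, adjusted p = 0.484), with DMSO replicate 2 among the treated values. The signs of SCD and ACLY turned with the scaling and with some arrays left out.

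**Figure D4:**
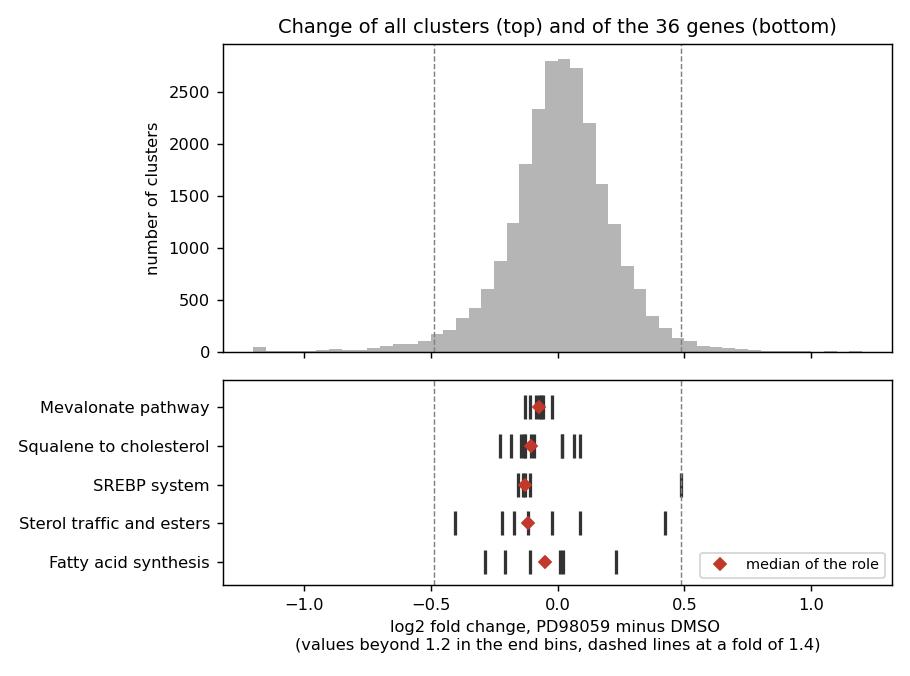
Top, the number of clusters (vertical axis) by log2 fold change (PD98059 minus DMSO, horizontal axis) over all 24415 clusters. Bottom, each of the 36 genes as a tick by role, with the median of the role as a diamond: the 5 medians lie between −0.13 and −0.05, and SCAP stands at the dashed line of a 1.4-fold rise.

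Taken array by array, all 3 treated cultures stood below all 3 controls. The median over the 36 genes of the value minus the mean of the gene was −0.03, −0.07 and −0.01 (−0.005) in PD98059 replicates 1, 2 and 3, against 0.03, 0.03 and 0.05 in DMSO replicates 1, 2 and 3. PD98059 replicate 2 was the lowest and PD98059 replicate 3 stood closest to the controls. Over the 18 sterol enzymes the values were −0.03, −0.08 and 0.00 (−0.003), against 0.04, 0.03 and 0.03. The 6 lipogenic genes were less orderly: they stood at −0.03, −0.05 and −0.01, against 0.04, −0.04 and 0.09, so that DMSO replicate 2 lay among the treated cultures. Within groups, the SD of single genes ran from 0.02 (INSIG1) to 0.15 (ABCA1), with a median of 0.05. That median was 0.12 over all clusters and 0.10 over those above background. The arrays themselves differed slightly, with a median log2 value of 4.69 to 4.74 with PD98059 and 4.68 to 4.70 with DMSO, and an upper quartile of 6.78 to 6.79 with PD98059 and 6.82 to 6.84 with DMSO. Centred on their medians, the arrays gave 30 of 36 genes below 0, with 19 lower and 3 higher without overlap. Centring also moved the background, to 15.8% of clusters lower and 9.20% higher without overlap and a cluster median of −0.02. After a repeated quantile normalization, 26 genes were below 0, with 18 lower and 5 higher without overlap, against 12.8% of clusters lower and 13% higher.

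A further 85 measured genes of the same pathways gave 1 that fell (FADS3), none that rose and 84 that did not pass. The background of lower calls was 1.78% of all clusters. The median log2 fold change of the 85 genes was −0.05, and 48 of them, or 56.5%, were below 0, against 46.4% of all clusters. Without overlap, 28 were lower, against 13% of all clusters, and 14 were higher, against 12.6%. These shares were larger among brighter clusters, and 77 of the 85 genes lay above background. Between log2 values of 6 and 8, 23.1% of clusters were lower and 16.2% higher without overlap. Between 8 and 10 the shares were 26.6% and 22.6%. The 85 genes were not split by level. FADS3, a member of the fatty acid desaturase cluster that acts on sphingoid bases, had 7.48, 7.45 and 7.51 with PD98059, against 8.07, 8.17 and 8.10 with DMSO. It lay far below the controls in every treated culture, and the change was −0.63 (interval −0.79 to −0.48, adjusted p = 0.00527), and it passed in all 6 fits without 1 array. FADS1 and FADS2, of the same gene family, act on polyunsaturated fatty acids. They had −0.17 and −0.21 and did not pass (adjusted p = 0.220 and 0.160).

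The 12 further genes of LXR signalling and sterol efflux moved both ways, with 7 changes below 0, 5 above, and none past the threshold. The highest was CYP27A1, the sterol 27-hydroxylase, at 0.22 without overlap (adjusted p = 0.195), and APOE, an apolipoprotein that accepts exported cholesterol, had 0.09 (adjusted p = 0.554). NR1H2 (LXR beta) had 7.44, 7.52 and 7.46 with PD98059, against 7.69, 7.66 and 7.74 with DMSO (−0.22, adjusted p = 0.118, or 0.0448 with dim clusters left out and 0.0244 with the variance trend). NR1H3 (LXR alpha) had 7.01, 6.91 and 6.82 with PD98059, against 7.20, 7.12 and 7.09 with DMSO (−0.22, adjusted p = 0.176). MYLIP, a ubiquitin ligase gene and LXR target, had 5.67, 5.60 and 5.73 with PD98059, against 5.88, 6.09 and 5.72 with DMSO, values that overlapped (−0.23, adjusted p = 0.292, and −0.13 without DMSO replicate 2). STAR, which brings cholesterol into the mitochondria for steroid synthesis, had 8.46, 8.33 and 8.48 with PD98059, against 8.57, 8.54 and 8.57 with DMSO (−0.14, interval −0.30 to 0.03, adjusted p = 0.345). The receptor genes and STAR were separate between the groups, though within an interval that reached 0 for STAR.

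Another 6 of the 85 genes passed the FDR limit inside the fold limit, 1 of them higher and 5 lower, and they are named here after their values were seen. With FADS3, 6 of the 85 genes were lower at the FDR limit alone, against 2.82% of all clusters, and 1 was higher, against 1.72%. MBTPS1, the protease that makes the first cut in SREBP in the Golgi, was the only higher one. It had 7.96, 7.95 and 7.98 with PD98059, against 7.68, 7.59 and 7.62 with DMSO (0.33, adjusted p = 0.0351), while MBTPS2, which makes the following cut, had a change of 0.06 (adjusted p = 0.658). TSPO, a cholesterol-binding protein of the outer mitochondrial membrane, had 7.13, 7.18 and 7.14 with PD98059, against 7.55, 7.64 and 7.66 with DMSO (−0.47, adjusted p = 0.0141). The acyltransferase genes LCAT, which esterifies cholesterol in plasma lipoproteins, and DGAT1, which completes triglycerides, were lower by the same amount. LCAT had 5.74, 5.65 and 5.68 with PD98059, against 6.09, 6.20 and 6.19 with DMSO (−0.47, adjusted p = 0.0155). DGAT1 had 6.37, 6.54 and 6.63 with PD98059, against 6.95, 6.91 and 7.08 with DMSO (−0.47, adjusted p = 0.0409). CYB5R3, the reductase that feeds electrons to desaturases and sterol oxidases through cytochrome b5, had −0.35 (adjusted p = 0.0325), and DHDDS, which makes the polyprenyl chain of dolichol, −0.32 (adjusted p = 0.0400). In all 6 genes the groups were separate.

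**Figure D5:**
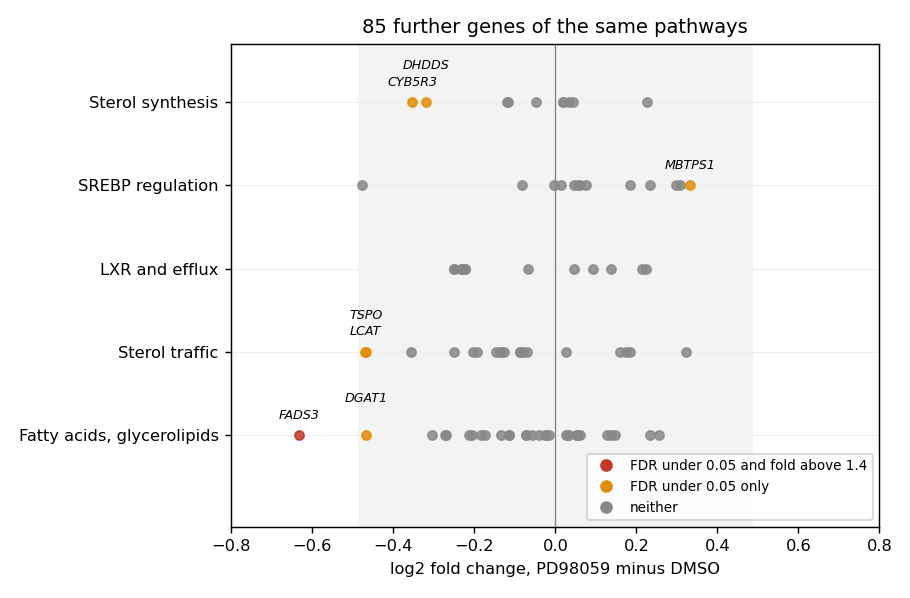
Each point is the log2 fold change (PD98059 minus DMSO, horizontal axis) of 1 of 85 further genes, by list (vertical axis), with changes under 1.4-fold shaded. FADS3 is the only one outside the shaded range that passed the threshold, and 6 named genes inside it passed the FDR limit alone.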

How the data were processed

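GeneChip Bovine Gene 1.0 ST arrays read the RNA of 3 PD98059-treated and 3 DMSO-treated cultures. The deposited log2 values, with 2 decimals, are the authors' RMA output from Expression Console (background correction, quantile normalization, probe summary), a procedure that would hide a change common to most transcripts. The series' value table holds the same 146490 values. No build is named for the cluster annotation, so positions are not given. Columns were assigned by the names of the samples, with 0 unmatched.

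Clusters were named through RefSeq accessions in the ARS-UCD2.0 annotation (16055 clusters) or by the listed symbol (3632). All 24415 clusters were fitted with limma 3.58.1 (lmFit, eBayes; two-sided) in R 4.3.3, with treatment as the only factor, after a check on simulated data. The smallest p that an exact test of 3 against 3 cultures allows is above 0.05, so single values were tested only in this fit. Figures were drawn with matplotlib 3.10.9.

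The members and the gene lists were chosen with earlier results of these data known. By the rule for named genes, values per array are given for genes past the threshold, for the 2 others with the smallest p in each role, and for STAR, NR1H2, NR1H3 and MYLIP. Some genes under this rule are not reported here. Values of the remaining genes named were added after they had been seen. The alternatives were a replicate block, median centring, a second quantile normalization, a filter at the background level, a variance trend and array weights. Further ones were a plain t-test per cluster, the FDR limit alone, averaging a gene over its clusters, and omitting single arrays. Promoter motifs were planned and not analysed here.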

Additional observations from a re-analysis of the deposited data

How the results depend on the processing

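By the FDR and fold limits together, SCAP, the only member past the threshold, was the only one whose call depended on the processing. The members called higher were 1 as reported, 0 with the replicate block (SCAP, adjusted p = 0.0671), 0 with the arrays centred on their medians, 2 at the FDR limit alone (SCAP and SOAT1), and 0 to 1 with 1 array left out. Members called lower were 0 in every setting run, and as reported 7 had an unadjusted p under 0.05 on the lower side. The FDR limit without the fold limit was met on the lower side in other fits. With dim clusters left out, ABCA1 and FASN met it. With the variance trend, EBP, CYP51A1, NPC2, ELOVL6, ABCA1 and FASN did, and with the plain t-test INSIG1 did. All these changes were inside the fold limit. The further pathway genes called lower were 4 with centred arrays, 6 at the FDR limit alone and 1 to 2 with 1 array left out, and 1 was called higher at the FDR limit alone. Over all clusters, 75 were called higher and 162 lower with the replicate block, 123 and 227 with the plain test, 421 and 689 at the FDR limit alone, and 97 to 160 and 174 to 331 with 1 array left out. Without adjustment, 790 clusters and 1 member, SCAP, passed the plain test at 0.05 together with the fold limit. With centred arrays, some medians of the roles moved by more than their spread. They went to −0.11 for the mevalonate genes, −0.14 from squalene to cholesterol and −0.16 for the SREBP system. Centring shifts all clusters alike, and the median over all clusters moved too, from 0.01 to −0.02. With 1 array left out, the median ran from −0.16 to −0.10 for the SREBP system from −0.19 to −0.05 for sterol traffic, and from −0.0858 (without DMSO replicate 2) to −0.0167 (without DMSO replicate 3) for the lipogenic genes, against −0.0483 with all arrays.

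Signs turned only for genes near 0. Centring gave −0.0167 for LSS, −0.0167 for MSMO1, −0.0133 for ACLY and −0.0233 for SCD, and the repeated quantile normalization gave 0.0003 for IDI1 and −0.0542 for SCD. With 1 array left out, IDI1 ran from −0.06 to 0.03, LSS from −0.0133 to 0.0367, ABCG1 from −0.075 to 0.055, ACLY from −0.0133 to 0.0583 and SCD from −0.01 to 0.03. The causes were not tested. The replicate numbers pair no samples in the labels' words: same-numbered arrays deviated together with correlations of 0.051, 0.037 and 0.037, each the highest of its array, a hint from the data only. ABCG1 lay near background, where a change could not be told from noise.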
